A study of Arabidopsis thaliana with 18 samples.

Results

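Seeds of the Arabidopsis thaliana mutant rdo5-1 were compared after 6 h of imbibition and in the dry state, on 3 arrays each. These 6 arrays were chosen by their labels from the 18 arrays of the study, which hold 3 arrays for each of 6 groups (rdo5-1 and the control line NIL-DOG1, each as siliques 14 days after pollination, as freshly harvested dry seeds and as seeds imbibed for 6 h). All 30014 genes of the table were examined. The labels call NIL-DOG1 the wild type, give no treatment beyond the stage, call the replicates biological, and describe plants on soil under 16 h of light and 8 h of dark. They do not say how many plants or seeds went into an array, or in which light and at which temperature the seeds were imbibed, and no agent is named for any group.

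RDO5 (REDUCED DORMANCY 5) encodes a member of the type 2C protein phosphatases and is needed for full seed dormancy, the block that keeps a fresh seed from germinating under good conditions. A dry seed carries stored mRNA, and with water uptake transcription and translation resume well before the root emerges. Abscisic acid keeps seeds dormant and gibberellin promotes germination, so the genes of both hormones are commonly read in early imbibition.

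The deposited values are log2 levels, 1 per gene and array, so a difference of 1 is a doubling. A gene was called when its adjusted p was under 0.05 in limma's fit to all 18 arrays, with Benjamini-Hochberg adjustment over all genes, and every adjusted p printed for a gene is from that fit unless another is named. Levels of different genes come from different probes. They were set against each other only to rank genes by level and to mark values near the low or high end of the scale. RMA, the summary method used, equalises the probe intensities of the arrays before it makes gene values, so each change is relative to the other transcripts of the seed. A seed holds embryo, endosperm and seed coat, and fewer cells of a type cannot be told apart from less RNA per cell.

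The arrays of a group resembled each other closely. Pairs of dry arrays correlated at 0.9925 to 0.993 across genes, pairs of imbibed arrays at 0.9929 to 0.9949, and a dry with an imbibed array at 0.9737 to 0.9784. The seed label was checked with the same probes on the 3 silique arrays of rdo5-1. For 13 silique valve and vegetative markers the mean level was 4.08 to 4.12 on the dry, 3.89 to 4.04 on the imbibed and 6.27 to 6.28 on the silique arrays, and 11 of the 13 were lower on every seed array than on every silique array. For 25 late embryogenesis abundant genes, which mark late seed maturation, the mean levels were 10.62 to 10.74, 10.26 to 10.47 and 7.64 to 7.82, with 19 of the 25 higher on every seed array. Storage and oil body genes (15) did not mark the seed arrays by higher levels, with means of 13.70 to 13.71, 13.57 to 13.65 and 13.81 to 13.89. Of the 15, 3 were higher and 9 lower on every seed array than on every silique array. For embryo (17 genes), endosperm (12) and seed coat markers (17) the mean levels were 4.36 to 4.45, 5.26 to 5.27 and 3.82 to 3.88 on the dry arrays, and 4.31 to 4.33, 5.12 to 5.24 and 4.21 to 4.27 on the imbibed arrays. The seed coat mean includes the flavonoid genes TT4 and TT5, the only members called higher, and the median change of that list was -0.10. The 75th percentile of the gene values was 6.16 to 6.21 on the dry and 6.31 to 6.35 on the imbibed arrays.

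Imbibition for 6 h changed a large share of the transcriptome of rdo5-1. Of the 30014 genes, 8496 were called (28.3%), 4932 higher in imbibed seeds (16.4%) and 3564 lower (11.9%). At least a 2-fold change was found for 698 of the higher genes (2.33% of all genes) and 447 of the lower ones (1.49%), and at least a 4-fold change for 80 and 55. After quantile normalization of the gene values 532 genes were called at least 2-fold higher and 498 lower, and after median centring 779 and 410. The median change of all genes was -0.04 and the median size of a called change was 0.50 on the log2 scale. The 3 imbibed and 3 dry arrays did not overlap for 41.9% of all genes, and for 8302 of the called ones. Calls were concentrated among brighter genes: in 5 equal bands of the genes by mean level, from the dimmest up, 3.18%, 7.16%, 19.9%, 48.5% and 62.9% were called. In the dimmest band 20 genes rose and 171 fell, and in the brightest band 2236 rose and 1537 fell. Of 2666 genes annotated as pseudogenes, which had a median dry level of 3.096, in the dimmest band, 19 rose and 132 fell (5.66% called).

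**Figure D1:**
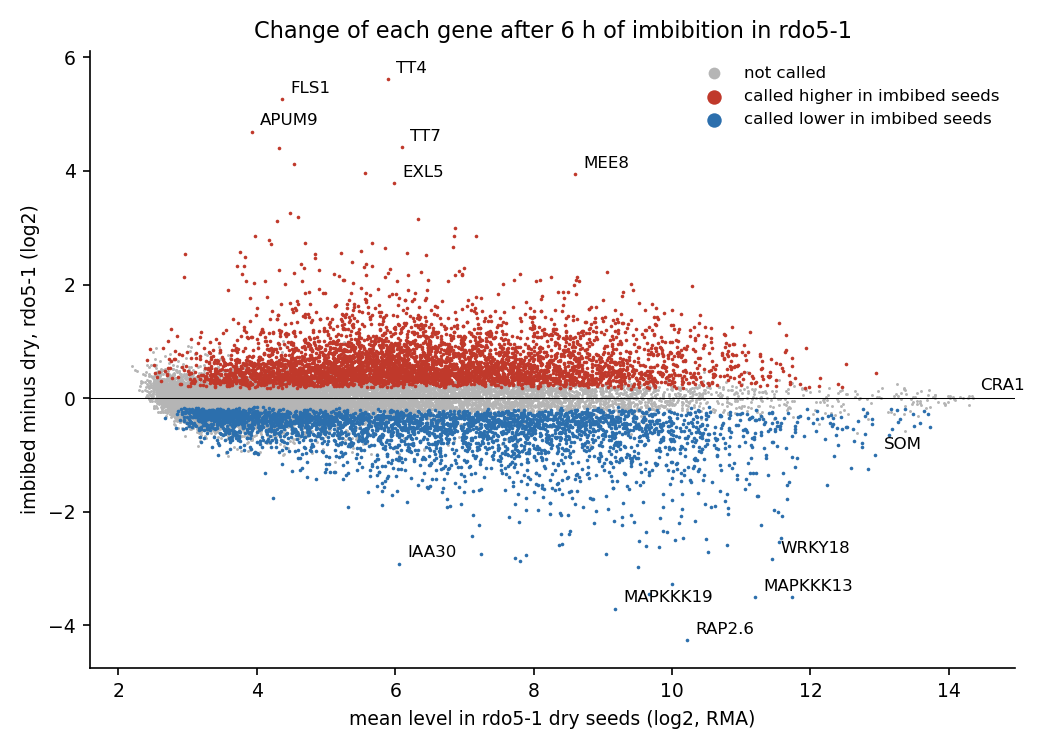
Change of each of the 30014 genes in rdo5-1 (imbibed minus dry, log2) against its mean level in dry seeds (log2). Red and blue points are genes called higher and lower, grey points are not called; the largest changes reach 5.62 (TT4) and -4.25 (RAP2.6), and the storage protein gene CRA1 at the bright end lies near 0.

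The largest rises included genes of the synthesis of flavonols, plant phenolics made from phenylalanine. TT4, which encodes chalcone synthase, the enzyme of the first committed step of flavonoid synthesis, had levels of 5.98, 5.91 and 5.79 on the dry arrays and 11.57, 11.37 and 11.59 on the imbibed arrays. All imbibed values lay far above the dry ones, a rise of 5.62 ± 0.15 (SE; 49.2-fold; adjusted p = 1.44e-12). FLS1, flavonol synthase, stood at 4.38, 4.50 and 4.21 in dry and 9.79, 9.35 and 9.74 in imbibed seeds, a rise of 5.27 ± 0.14 (adjusted p = 1.78e-12). TT7, the flavonoid 3'-hydroxylase, rose by 4.42 ± 0.13, from 5.97, 6.13 and 6.20 to 10.69, 10.19 and 10.66. On each of these 3 genes imbibed array 2 was the lowest of the imbibed arrays, by far less than the distance to the dry arrays.

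A list of 16 genes of phenylpropanoid entry, flavonol synthesis, glycosylation and regulation was put together with these values known. Of it 13 genes rose and none fell, with a median change of 1.80 against -0.04 for all genes. The share called was 81.2%, against 28.3% of all genes. Besides those above, TT5 (chalcone isomerase) rose by 3.16 ± 0.17, CHIL (a chalcone isomerase-like protein) by 3.18 ± 0.21, F3H (flavanone 3-hydroxylase) by 2.13 ± 0.11, RHM1 (a rhamnose synthase) by 2.07 ± 0.17, PAL1 and PAL2 (phenylalanine ammonia-lyases) by 1.53 ± 0.19 and 1.15 ± 0.15, and C4H (cinnamate hydroxylase) by 0.99 ± 0.11 (SE). MYB12, a transcription factor that activates flavonol synthesis genes, rose from 4.80, 4.81 and 4.91 to 7.42, 7.10 and 7.58, while its relatives MYB11 and MYB111 changed by -0.12 and -0.32 (adjusted p = 0.486 and 0.219). The members not called were these and UGT78D2, a flavonoid glucosyltransferase (0.07; adjusted p = 0.668). TT4 and TT5 also stand in the list of seed coat markers, where they were the members that rose. Of the others of its 17 genes none rose: TT3 and LDOX, which lead to anthocyanidins, changed by 0.11 and -0.11, and BAN, which makes proanthocyanidin precursors in the seed coat, by -0.02 (adjusted p = 0.714, 0.699 and 0.941), with dry levels of 3.07 to 3.67 near the low end of the scale. TT16 and GL2 fell by 0.28 and 0.26, but TT16 lost its call without dry array 2 or imbibed array 3 (adjusted p = 0.169 and 0.121) and GL2 without dry array 1 or 2 or imbibed array 1 or 2 (0.0766 to 0.126). In rdo5-1 siliques, whose arrays are given here for their level only, TT4 stood at 10.69 ± 0.25 and FLS1 at 9.83 ± 0.26 (SD, n = 3).

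Several of the other large rises were of loci without a name. AT3G07460 and AT3G07470, neighbouring loci with no gene name in the annotation used, stood at 4.47, 4.12 and 4.38 and at 4.79, 4.30 and 4.52 on the dry arrays. On the imbibed arrays they stood at 8.64, 8.87 and 8.63 and at 8.65, 8.65 and 8.68, rises of 4.39 ± 0.12 and 4.12 ± 0.13 (SE; adjusted p = 2.25e-12 and 7.42e-12). MEE8, named for a maternal effect embryo arrest, rose by 3.95 ± 0.15, from 8.69, 8.38 and 8.73 to 12.55, 12.50 and 12.59. The unnamed AT5G10120 rose by 3.96 ± 0.16, AT1G21520 by 3.11 ± 0.27, AT5G62210 by 2.998 ± 0.16 and AT2G23910 by 2.86 ± 0.15. The gene sks17, of a family related to multicopper oxidases, rose by 3.26 ± 0.11.

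EXL5 had the smallest adjusted p among the named genes (4.04e-13). It belongs to the EXORDIUM family of cell wall-associated proteins, some of which respond to brassinosteroid, and rose from 6.03, 5.97 and 5.95 to 9.69, 9.77 and 9.85. Of the 8 family members, a list put together with the values known, 4 rose and 2 fell, 75% called against 28.3% of all genes. EXL3 rose by 2.40 ± 0.08 and EXO by 2.29 ± 0.19. The other called members, PHI-1 (0.38 ± 0.12), EXL4 (-0.50 ± 0.14) and EXL6 (-0.37 ± 0.12), all lost their calls without dry array 2 (adjusted p = 0.069, 0.0654 and 0.105) and without imbibed array 2, leaving 3 rises and no fall, and EXL6 lost its call in 5 of the 6 fits without 1 array.

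APUM9, which encodes a Pumilio RNA-binding protein, rose from 3.72, 4.01 and 4.05 to 8.94, 8.28 and 8.62, a change of 4.69 ± 0.14 (SE; 25.8-fold; adjusted p = 2.86e-12). Pumilio proteins bind specific mRNAs and repress them. Of the 14 family members on the array 35.7% were called, against 28.3% of all genes. APUM24, a nucleolar member linked to ribosome formation (0.83 ± 0.10), and APUM1 (0.66 ± 0.11) also rose. APUM5 fell by 0.58 and APUM4 by 0.19, and the call of APUM4 was lost in 6 alternatives, without dry array 1 or 3 or imbibed array 2 or 3 among them (adjusted p = 0.117, 0.053, 0.0825 and 0.102). The close relative APUM11 changed by 0.06 ± 0.20 (adjusted p = 0.859), with overlapping values of 5.45, 5.49 and 5.64 in dry and 5.43, 5.34 and 5.98 in imbibed seeds.

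**Figure D2:**
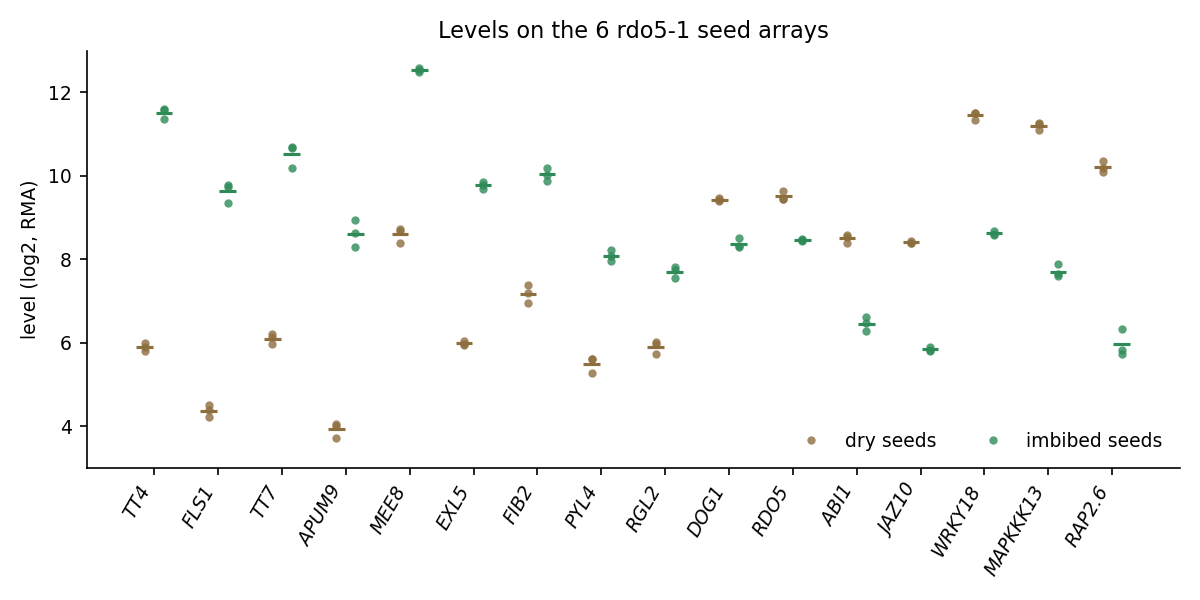
Levels (log2) of 16 genes on the 3 dry (brown) and 3 imbibed (green) arrays of rdo5-1, with the mean of each group as a bar. Dry and imbibed points of each gene are apart, and the distance is widest for TT4 and FLS1 among the rises and for RAP2.6 among the falls.

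The largest falls included transcription factors and kinases. RAP2.6, a transcription factor of the ethylene response factor family, stood at 10.19, 10.36 and 10.097 in dry and 6.34, 5.83 and 5.72 in imbibed seeds, a fall of 4.25 ± 0.19 (SE; 19.1-fold; adjusted p = 2.17e-10). MAPKKK19 and MAPKKK13, kinases that stand at the top of mitogen-activated protein kinase cascades, fell by 3.70 ± 0.14 and 3.499 ± 0.11. For MAPKKK13 the dry arrays read 11.24, 11.27 and 11.10 and the imbibed arrays 7.88, 7.59 and 7.63, well apart. Of 21 genes named as MAPKKK in the annotation, a list put together with these values known, 7 fell and none rose. That is 33.3% called, near the 28.3% of all genes. MAPKKK14 fell by 2.18, MAPKKK5 by 0.72, MEKK1 by 0.58 and MAPKKK18 by 0.48.

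WRKY18, a stress-related transcription factor, fell by 2.83 ± 0.11, from 11.33, 11.51 and 11.51 to 8.57, 8.61 and 8.68. In the WRKY family 15 of 47 members fell and 4 rose (median -0.18), 40.4% called against 28.3% of all genes. Among the falls were WRKY17 by 1.58, WRKY33 by 1.54, WRKY28 by 1.44 and WRKY3 by 0.87. OXS3, named for oxidative stress, fell by 3.27 and ZAT6, a zinc finger factor, by 2.71. BMY3, which encodes a protein of the beta-amylase family, fell by 2.97 ± 0.11. ORS1, named for organ size, fell by 2.75. The unnamed AT5G66430, AT2G22880, AT5G05965 and AT2G27830 fell by 3.51, 3.45, 2.81 and 2.74, and AT2G03540, annotated as a pseudogene, by 2.87. The 15 genes with the largest falls had adjusted p-values of at most 9.33e-08.

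Listed genes of ethylene and jasmonate, hormones of stress and wounding, moved down more often than up, while 16.4% of all genes rose and 11.9% fell. In the ethylene list 12 of 28 genes fell, 8 of them at least 2-fold, and 3 rose (median -0.17), 53.6% called against 28.3% of all genes. Only 1 rose without dry array 1 or 2 or imbibed array 1 or 3. ACS6, an enzyme that makes the ethylene precursor, fell from 7.11, 7.51 and 7.10 to 4.64, 4.33 and 4.55, by 2.74 ± 0.11. The response factors ERF2, ERF6 and ERF5 fell by 2.38, 1.46 and 1.29, and EBF2, an F-box protein that removes the ethylene regulators EIN3 and EIL1, by 1.15. In the jasmonate list 13 of 32 genes fell and 3 rose (median -0.18), 50% called. Its median dry level was 4.20, in the range where 19.9% of all genes were called. JAZ10, a repressor that jasmonate itself induces, stood at 8.40, 8.39 and 8.44 in dry and 5.89, 5.82 and 5.80 in imbibed seeds, a fall of 2.57 ± 0.08 (adjusted p = 7.69e-12). JAZ8, JAZ1 and the jasmonate synthesis gene AOC3 fell by 1.13, 0.78 and 0.93, while JAZ7 rose by 0.95 and JAR1, which conjugates jasmonate to isoleucine, by 0.65.

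Lists of the machinery that makes, folds and degrades proteins held some of the highest shares of genes that rose. In the 26S proteasome list 33 of 38 genes rose and 2 fell, 92.1% called against 28.3% of all genes, with a median of 0.71. The genes of this list had a median dry level of 8.82, in the range of levels where 62.9% of all genes were called. The base subunit gene RPT5B stood at 8.04, 7.88 and 8.04 in dry and 9.41, 9.30 and 9.51 in imbibed seeds, a rise of 1.42 ± 0.10. The core subunit genes PBD2, PBC2 and PBB2 rose by 1.34, 1.30 and 1.22, and the ATPase gene RPT2b by 1.27. The 2 members that fell were the ubiquitin receptors RPN10 (fell by 0.23) and RPN13 (fell by 0.28). No fall was called without dry array 2, and 1 was called without any other single array.

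Of 26 ribosome biogenesis genes 19 rose and 1, REIL1, fell, by 0.52 (median 0.49), 76.9% called against 28.3% of all genes. FIB2, a fibrillarin, which methylates ribosomal RNA, showed the largest rise, from 7.19, 6.95 and 7.38 to 10.02, 9.89 and 10.19 (2.86 ± 0.16; adjusted p = 2.36e-09). CBF5, which makes pseudouridine in ribosomal RNA, rose by 1.43, the nucleolar GTPase gene NSN1 by 1.41, NOP56 by 1.18 and the nucleolin gene NUC-L1 by 0.95. Of 66 nuclear genes that the annotation names as ribosomal proteins, cytosolic and organellar, 53 rose and 1 fell (median 0.66), a list added after seeing the values. Of these 81.8% were called, and RPL34 rose by 1.80 and RPS6 by 1.58. The median dry levels of the biogenesis and ribosomal protein lists were 7.07 and 8.49, in the range where 62.9% of all genes were called. Of 19 aminoacyl-tRNA synthetase genes 6 rose and none fell (31.6% called), by at most 0.70 (OVA1).

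Among 19 chaperone genes of the endoplasmic reticulum 14 rose, none fell, and the median was 0.78 (73.7% called against 28.3% of all genes). Their median dry level of 6.52 lies near the edge between the bands where 48.5% and 62.9% of all genes were called. The protein disulfide isomerase gene PDIL2-3 stood at 6.52, 6.50 and 6.53 in dry and 8.10, 7.96 and 8.14 in imbibed seeds. PDIL1-1 rose by 1.27, the calreticulin gene CRT1 by 1.23, the calnexin gene CNX1 by 1.09 and SHD, an HSP90 of this compartment, by 1.17. Of 27 genes for protein import into mitochondria 19 rose and 1 fell (median 0.68), the fall not being called without dry array 1 or 2 or imbibed array 1 or 2. That is 74.1% called, at a median dry level of 8.52, in the range where 62.9% of all genes were called. The inner membrane channel gene TIM23-2 rose from 8.54, 8.44 and 8.73 to 10.08, 10.02 and 9.95, and the matrix chaperone genes HSP60 and MTHSC70-1 by 1.40 and 1.28.

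Of 93 loci of the mitochondrial genome 32 fell, 16 of them at least 2-fold, 60 were not called and 1 rose (median -0.24). That is 35.5% called, against 28.3% of all genes. The single rise was not called without dry array 1 or imbibed array 2. ATMG00516 stood at 9.70, 9.99 and 9.92 in dry and 7.66, 7.44 and 7.52 in imbibed seeds, and ATMG01190 fell by 2.202, ATMG01120 by 1.63 and ATMG01320 by 1.59. In the chloroplast genome 1 of 14 loci was called, ATCG00020 (higher by 1.00; adjusted p = 0.00951, and 0.0591 without dry array 1).

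**Figure D3:**
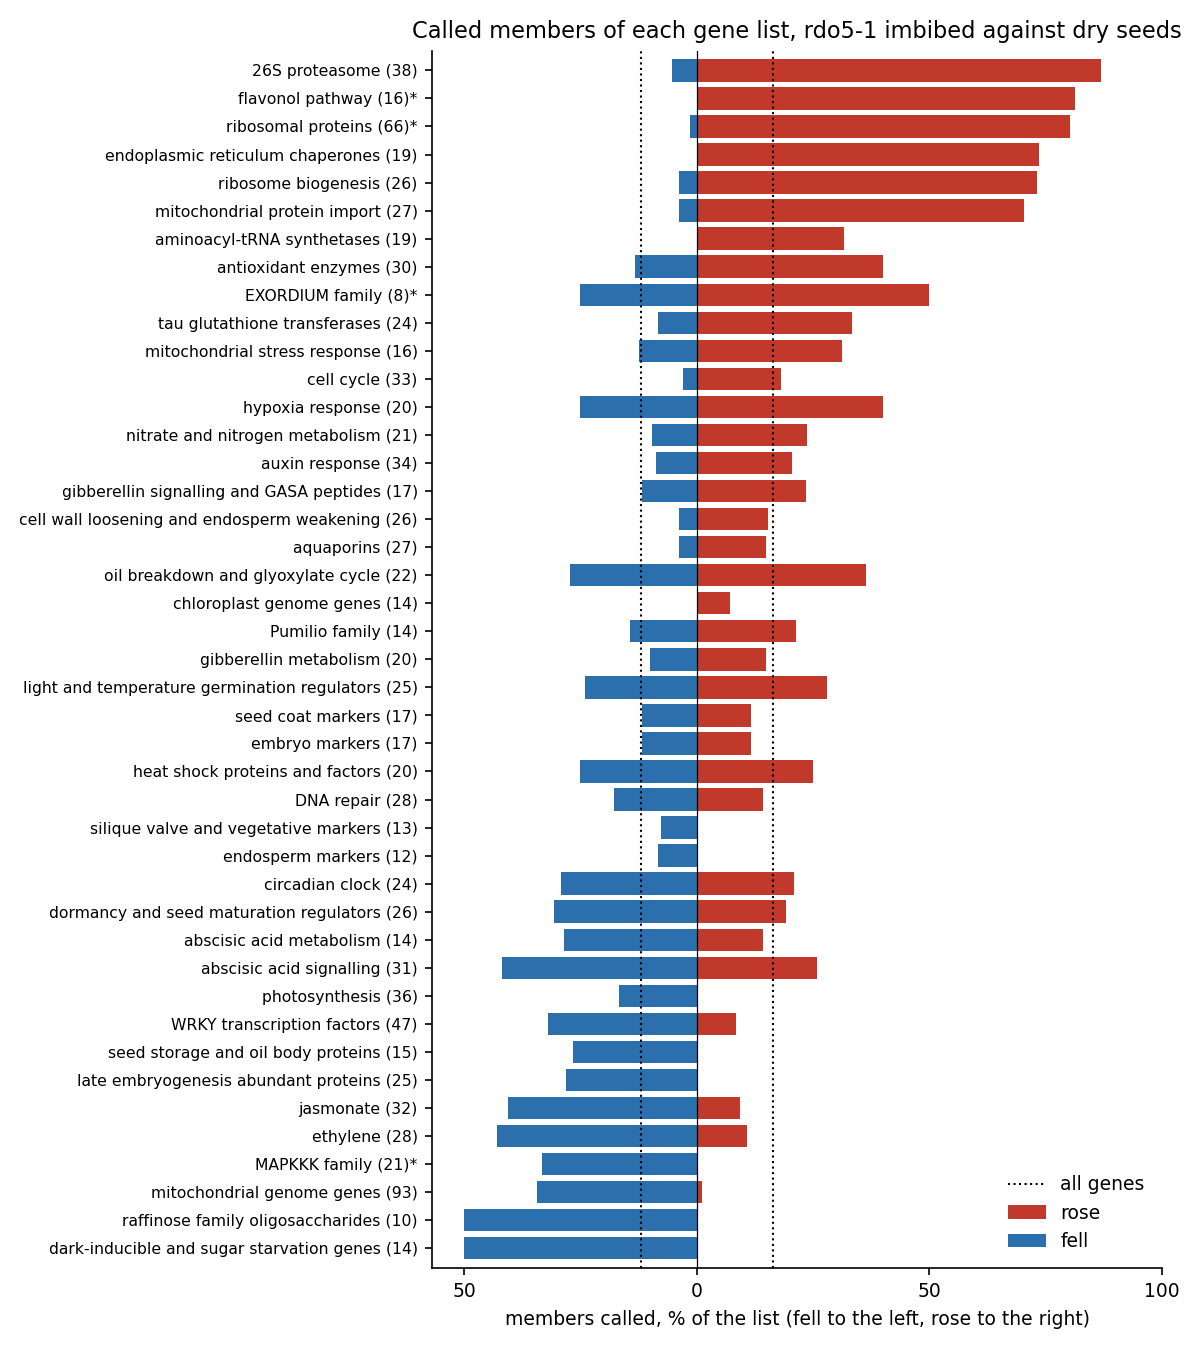
Share of called members (%) of each gene list, rose to the right and fell to the left, with the number of members in parentheses. Dotted lines give the shares of all genes (16.4% and 11.9%), and an asterisk marks a list put together with the values known; 33 of 38 genes of the 26S proteasome list rose and 7 of 14 of the dark and sugar starvation list fell.

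In the dormancy genes, both DOG1 and RDO5 itself fell. DOG1, the central dormancy gene of Arabidopsis, stood at 9.39, 9.48 and 9.42 in dry and 8.31, 8.51 and 8.30 in imbibed seeds, a fall of 1.05 ± 0.09 (SE; 2.08-fold; adjusted p = 1.11e-07). RDO5, whose transcript the array still reads in its mutant, fell from 9.44, 9.45 and 9.64 to 8.47, 8.43 and 8.48, by 1.05 ± 0.14 (adjusted p = 1.71e-05). In siliques of the same line DOG1 stood at 9.47 ± 0.06 and RDO5 at 5.53 ± 0.41 (SD, n = 3). Of the 26 genes of the list of dormancy and maturation regulators 8 fell and 5 rose, or 3 rose without dry array 2 or 3 or imbibed array 1. With all arrays 50% of the list was called, against 28.3% of all genes. The median dry level of the list was 5.34, in the range where 48.5% of all genes were called. SOM, a zinc finger gene that acts against germination in the dark, fell by 1.00, BZIP67, a factor of seed maturation, by 1.26 and RDO2 by 0.93. PIL5 (PIF1), the phytochrome-interacting factor that represses germination in the dark, rose from 6.24, 5.95 and 6.24 to 7.94, 7.71 and 7.96, by 1.73 ± 0.09. ABI3, a master regulator of maturation, was called with a rise of 0.27 ± 0.08 (adjusted p = 0.023). That call was lost in 6 of 13 alternatives: without dry array 2 or 3 or imbibed array 1 or 3 (adjusted p = 0.0843, 0.0671, 0.0953 and 0.104), with the 6 seed arrays fitted alone (0.0829) and after quantile normalization (0.276).

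In abscisic acid metabolism 2 of 14 genes rose and 4 fell (42.9% called). After median centring 4 rose and 2 fell, with array weights 4 rose, and without dry array 3 there were 2 falls. The median dry level of this list was 4.90, in the range where 48.5% of all genes were called. NCED6, one of the dioxygenases that set the rate of abscisic acid synthesis, fell from 5.29, 5.15 and 5.26 to 4.21, 4.26 and 4.15, by 1.03 ± 0.20 (adjusted p = 8.03e-04), and NCED3 fell by 0.59. ABA4, which acts upstream at neoxanthin formation, rose by 1.19 ± 0.11 and ABA2 by 0.50 ± 0.12 (adjusted p = 0.00365, and 0.0509 after quantile normalization). CYP707A2, the 8'-hydroxylase that breaks down abscisic acid in imbibed seeds, stood at 7.88, 7.78 and 7.80 in dry and 8.06, 8.04 and 8.10 in imbibed seeds. The groups did not overlap, but the change of 0.25 ± 0.09 missed the threshold (adjusted p = 0.0555). It passed in 5 of 13 alternatives, with adjusted p-values from 0.0232 to 0.317 over all of them.

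In abscisic acid signalling 8 of 31 genes rose and 13 fell, and receptors moved in both directions. That is 67.7% called, in a list with a median dry level of 7.07, in the range of levels where 62.9% of all genes were called. The receptor gene PYL4 rose from 5.27, 5.61 and 5.61 to 8.21, 8.09 and 7.96, by 2.59 ± 0.13 (adjusted p = 8.75e-10), and PYR1 by 0.75, while PYL7 fell from 10.18, 10.07 and 10.18 to 8.38, 8.59 and 8.38, by 1.69. Phosphatases of type 2C, which the receptors inhibit, were also divided: ABI1 fell from 8.39, 8.58 and 8.54 to 6.60, 6.27 and 6.47 and ABI2 by 0.98, while HAI3 rose by 1.76 ± 0.12. ABI4, a transcription factor of this pathway, rose by 1.23 ± 0.11.

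In gibberellin metabolism 3 of 20 genes rose and 2 fell, 25.0% called against 28.3% of all genes. GA20OX3, one of the oxidases of the late synthesis steps, rose from 4.89, 4.93 and 4.44 to 6.73, 6.58 and 6.56, by 1.87 ± 0.13 (adjusted p = 2.03e-08), and GA20OX2 and GA3 (ent-kaurene oxidase) rose by 0.60 and 0.48. GA2OX6, an enzyme that inactivates gibberellin, fell by 0.99. The other fall, of GA2OX2 (-0.27), was called in none of the fits without 1 array (adjusted p of 0.0533 to 0.148), nor after median centring (0.0834). GA3OX1, whose product makes the active hormone, stood at 4.31, 4.05 and 4.09 in dry and 4.48, 4.57 and 4.63 in imbibed seeds. It changed by 0.41 ± 0.17 and was not called (adjusted p = 0.0928), but passed with the 6 seed arrays fitted alone (adjusted p = 0.0163) and with the replicate number as a block (0.0314). Its paralog GA3OX2 changed by -0.19 ± 0.10 with overlapping arrays (adjusted p = 0.158), and its fall passed without dry array 3 (-0.29; adjusted p = 0.0332).

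Among 17 genes of gibberellin signalling and GASA peptides 4 rose and 2 fell, 35.3% called against 28.3% of all genes. Their median dry level was 5.90, in the range where 48.5% of all genes were called. DELLA proteins, the repressors that gibberellin removes, accounted for 3 of the rises: RGL2, a main DELLA of seed germination, rose from 5.72, 5.98 and 6.01 to 7.74, 7.55 and 7.80 (1.80 ± 0.10), RGA by 1.28 and GAI by 0.94. A further DELLA gene, RGL3, fell by 0.89. The receptor gene GID1C fell by 0.67, and SLY1, the F-box protein that marks DELLAs for degradation, rose by 0.60.

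**Figure D4:**
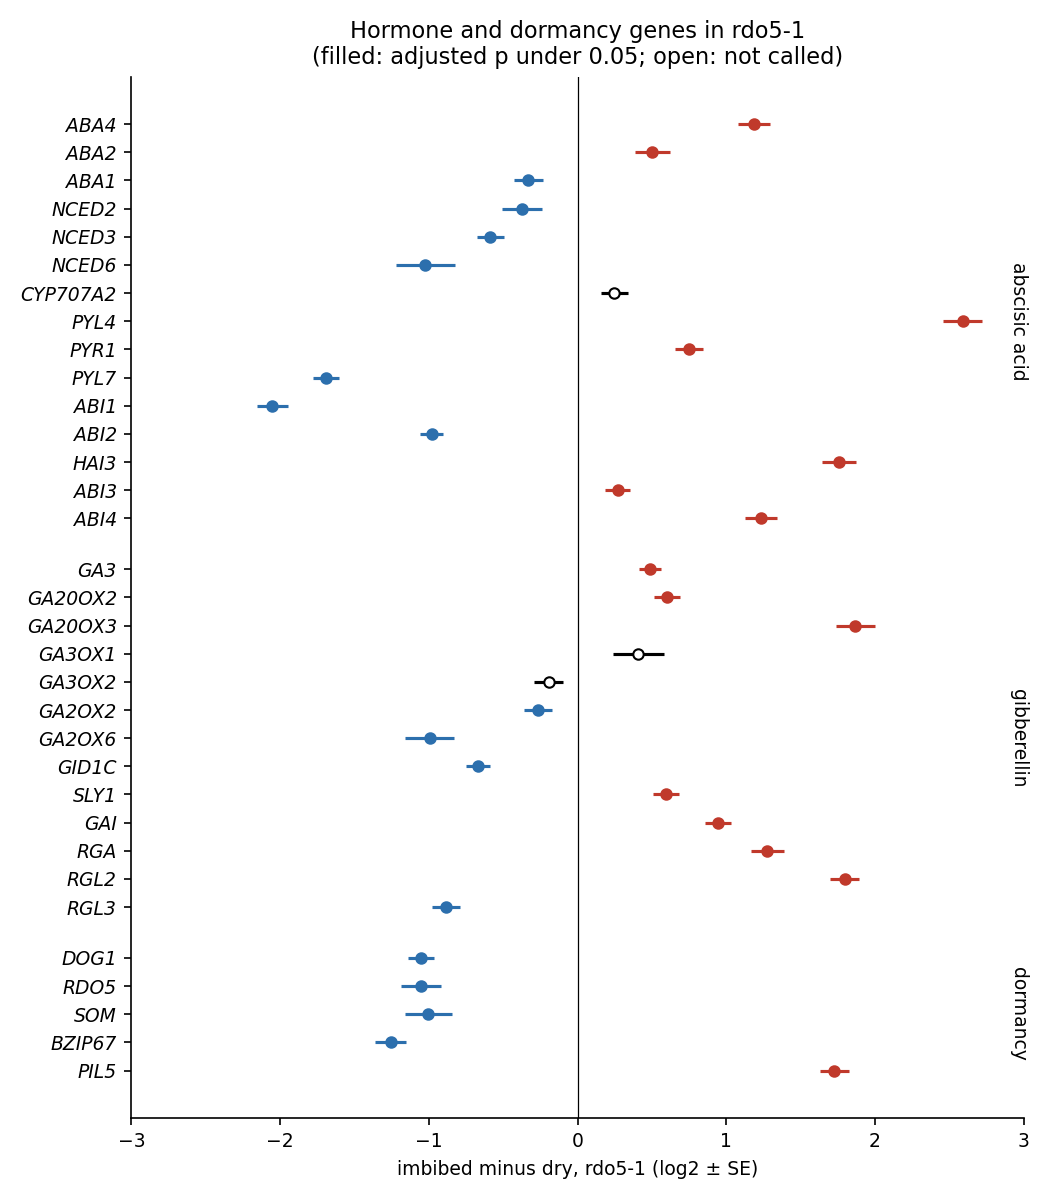
Change in rdo5-1 (imbibed minus dry, log2, with its SE) of genes of abscisic acid, gibberellin and dormancy. Red and blue points were called higher and lower and open points were not called; PYL4 lies at 2.59, RGL2 at 1.80, ABI1 at -2.05 and DOG1 at -1.05.

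Auxin genes moved in both directions, with 7 of 34 higher and 3 lower, 29.4% called and so near the 28.3% of all genes. IAA30, of the Aux/IAA repressor family, fell from 5.97, 5.79 and 6.41 to 3.32, 3.12 and 2.99, by 2.91 ± 0.14; its imbibed values lie near 3.13, the upper edge of the dimmest band of genes, where background limits the size that can be read. IAA2 fell by 1.18, while GH3.6, which conjugates auxin, rose by 1.19. Of 26 cell wall loosening genes 4 rose and 1 fell (19.2% called), the fall not without dry or imbibed array 2. XTH22, a xyloglucan-modifying enzyme, rose by 1.53 ± 0.28 and spread widely on the imbibed arrays (7.79, 6.16 and 7.05, against 5.48, 5.19 and 5.74 on the dry ones). The expansin genes EXPA20 and EXPA1 rose by 1.40 and 1.30.

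Reserve and protection transcripts changed little or fell. Of 15 storage and oil body genes none rose and 4 fell (26.7% called; median -0.01; 2 falls after quantile normalization), with SESA2 (2S albumin) lower by 0.51 and OLEO3 (an oleosin) by 0.35. The call of SESA4, a further 2S albumin gene, was lost in 9 of 13 alternatives, among them without dry array 1 or 2 or imbibed array 2 or 3 (adjusted p = 0.148, 0.109, 0.204 and 0.0667). The cruciferin genes CRC and CRA1, the oleosin gene OLEO4, AT3G15670, the defensin gene LCR67 and the dehydrin gene AT5G66400, named for their high array values, were not called. Their values lay near 14.39, the highest on these 6 arrays, which limits the changes that can be seen there. Of 25 late embryogenesis abundant genes, which protect dry tissue, 7 fell and none rose, which at 28% called is near the share of all genes (median -0.25), RAB28 by 1.15 and XERO2 by 0.72. The median dry levels of the storage and late embryogenesis abundant lists were 13.99 and 12.04, in the range where 62.9% of all genes were called. Of 10 genes of raffinose family sugars, which accumulate in dry seeds, 5 fell and none rose, 50% called against 28.3% of all genes. The galactinol synthase gene GOLS2 stood at 12.83, 12.81 and 12.85 in dry and 11.59, 11.53 and 11.60 in imbibed seeds, and RS2 fell by 1.11. The fall of GOLS3 (-0.41; adjusted p = 0.0427) was called in none of the fits without 1 array (0.0538 to 0.142). That of RS5 (-0.28; 0.0244) was lost without dry array 1 or 2 or imbibed array 1 or 2 (0.0564 to 0.087). Without dry array 1, imbibed array 1 or imbibed array 2, and after median centring, 3 of the 10 genes fell.

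In the oil breakdown and glyoxylate cycle list 8 of 22 genes rose and 6 fell, 63.6% called, in a list with a median dry level of 8.35, in the range where 62.9% of all genes were called. ICL, isocitrate lyase, rose by 0.59, from 12.53, 12.50 and 12.49 to 13.11, 13.01 and 13.18, and PMDH1, a peroxisomal malate dehydrogenase, by 0.80, while ACX3, an acyl-CoA oxidase, fell by 1.51. Of 14 genes of the dark and sugar starvation list 7 fell and none rose (median -0.40), 50% called against 28.3% of all genes. The median dry level of that list was 6.43, in the range where 48.5% of all genes were called. TPS11 fell by 1.38, DIN1 by 1.33 and ASN1 (asparagine synthetase) by 0.88. Among 36 photosynthesis genes 6 fell and none rose, which at 16.7% called is below the share of all genes, and LHCB5 fell by 0.78 and LHCB4.1 by 0.71.

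Genes of redox and stress protection included several clear rises. Of 30 antioxidant genes 12 rose and 4 fell, 53.3% called against 28.3% of all genes. GPX2 (a glutathione peroxidase) stood at 5.92, 6.45 and 6.18 in dry and 8.74, 8.11 and 8.21 in imbibed seeds, and APX1 (ascorbate peroxidase) rose by 1.46. Of 24 tau class glutathione transferase genes 8 rose and 2 fell (1 without dry array 3 or imbibed array 2 or 3), 41.7% called. GSTU22 rose by 2.54 ± 0.21, GSTU24 by 2.49 ± 0.22 and GSTU17 by 2.18 ± 0.14. AOX1A, the alternative oxidase of mitochondria, rose from 4.12, 4.51 and 4.82 to 6.24, 5.86 and 6.36. Heat shock genes were divided, with 5 of 20 higher and 5 lower (3 lower without dry array 1), 50% called. HSP22.0 rose by 2.51 ± 0.26 and HSFA9, a seed-specific heat shock factor, fell by 0.74. In the hypoxia list 8 of 20 rose and 5 fell (65% called), or 5 rose without dry array 1 or 2 or imbibed array 1. PCO1 and PCO2, plant cysteine oxidases that act as oxygen sensors, were higher by 2.01 and 1.41 and ADH1 (alcohol dehydrogenase) lower by 0.65. The antioxidant, heat shock and hypoxia lists had median dry levels of 7.69, 6.91 and 7.11, in the range where 62.9% of all genes were called.

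In the cell cycle list 6 of 33 genes rose and 1 fell (21.2% called). The kinase gene CDC2 stood at 6.90, 6.86 and 6.96 in dry and 8.03, 8.00 and 7.97 in imbibed seeds, CYCD2;1, a D-type cyclin, rose by 1.37, and KRP7, an inhibitor of cell cycle kinases, fell by 0.92. Of 28 DNA repair genes 4 rose and 5 fell, 32.1% called against 28.3% of all genes, and 3 fell without dry array 1 or 2 or imbibed array 2 or 3, with RAD51C, a recombination protein, higher by 1.21. Light and clock genes went both ways: HYH, a relative of the light regulator HY5, rose by 1.39, the blue light receptor gene CRY2 fell by 1.11, the clock-controlled RNA-binding protein gene CCR2 rose by 1.86 and RVE2 fell by 1.76. Of 24 clock genes 5 rose and 7 fell (50% called), and of 25 light and temperature regulators 7 and 6 (52% called). The median dry levels of these lists were 6.26 and 5.19, in the range where 48.5% of all genes were called. The nitrate transporter gene NRT1.1 rose by 1.45 and the nitrate reductase gene NIA1 by 0.94. In their nitrogen list 5 of 21 rose (8 with array weights) and 2 fell, 33.3% called against 28.3% of all genes. The median dry level of the nitrogen list was 5.48, in the range where 48.5% of all genes were called. Of 27 aquaporin genes, channels for water, 4 rose, by at most 0.57 (NIP5;1), and 1 fell (18.5% called), the fall not without dry array 2 or imbibed array 3. In the mitochondrial stress list 5 of 16 genes rose and 2 fell (43.8% called), or 1 fell without any 1 dry array or imbibed array 3. Among markers of tissue, WOX2, an embryo patterning gene, fell by 1.51 and SCR, a root patterning gene, rose by 0.74 (2 of 17 embryo markers rose and 2 fell), and 1 of 12 endosperm markers and 1 of 13 silique valve and vegetative markers was called lower (ZOU and IRX3). The call of ZOU was lost without dry array 1 or any imbibed array (adjusted p of 0.0543 to 0.151), and that of IRX3 without dry array 2 (0.0739).

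The same stages were measured in NIL-DOG1, whose 6 seed arrays are separate from those of rdo5-1. There 7460 genes were called (24.9%). Of the 1145 genes called with at least a 2-fold change in rdo5-1, 1107 (96.7%) were called in NIL-DOG1 in the same direction, 37 were not called and 1 was called in the opposite direction. Of the 957 such genes of NIL-DOG1, 920 (96.1%) were called in rdo5-1 in the same direction and 37 were not called. The log2 changes correlated at 0.8494 over all genes (Pearson; genes are not independent replicates). The response of TT4 was 5.24 in NIL-DOG1 against 5.62 in rdo5-1, and that of RAP2.6 was -4.04 against -4.25.

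The difference between the responses was tested itself, as rdo5-1 minus NIL-DOG1. It was called for 6 genes (0.02% of all genes), 5 of them with the higher response in rdo5-1, and 1948 genes had an unadjusted p under 0.05. APUM9 differed by 4.70 ± 0.19 (SE; adjusted p = 3.14e-09): its NIL-DOG1 values were 3.12, 3.36 and 3.13 in dry and 3.19, 3.299 and 3.09 in imbibed seeds, a response of -0.01 (adjusted p = 0.969). Those NIL-DOG1 values lie in or just above the dimmest band of genes (mean levels up to 3.13). A small response there could be hidden by background, which limits how exactly the size of the difference can be read. GSTU22 differed by 2.08 ± 0.29 (adjusted p = 0.0365), with NIL-DOG1 values of 2.89, 3.45 and 3.13 and 3.095, 4.098 and 3.64 against 2.80, 3.13 and 2.94 and 5.71, 5.39 and 5.37 in rdo5-1. Its dry values lie in or at the edge of the dimmest band of genes (mean levels up to 3.13), so the sizes of its changes rest on values near background.

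HB33, a zinc finger homeodomain factor, rose in both lines, by 1.49 in rdo5-1 and 0.77 in NIL-DOG1 (difference 0.71; adjusted p = 0.0365). The abscisic acid receptor gene PYR1 rose by 0.75 in rdo5-1, from 9.14, 9.01 and 9.19 to 9.73, 9.999 and 9.86, and stood at 9.05, 9.14 and 9.11 in dry and 8.85, 9.13 and 8.99 in imbibed NIL-DOG1 seeds (difference 0.86; adjusted p = 0.0484). The unnamed AT2G24560 had responses of 1.096 and 0.25 (adjusted p of the difference 0.046), and AT5G65533 of -0.78 and 0.32 (0.046). Of these 6 differences that of APUM9 was called in all 19 alternatives, and each of the others was lost in most of them, GSTU22 in 11 of 19. Leaving out imbibed rdo5-1 array 2 raised the count of called differences to 10, leaving out rdo5-1 dry array 3 gave 4, and leaving out any 1 of the 10 other seed arrays gave between 1 and 3.

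For the genes of dormancy and hormones named above other than PYR1 the difference between the lines was not called. The response of DOG1 was -0.86 in NIL-DOG1 (adjusted p of the difference 0.868), that of RDO5 -0.64 (0.761), that of PYL4 2.09 (0.631) and that of RGL2 1.56 (0.852). For GA20OX3 the response was 1.87 in rdo5-1 and 0.82 in NIL-DOG1, a difference of 1.05 ± 0.18 (SE; adjusted p = 0.107), and for ABI4 1.23 and 0.67, a difference of 0.57 ± 0.15 (adjusted p = 0.379). Those p-values miss the threshold and do not show that the lines respond alike.

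**Figure D5:**
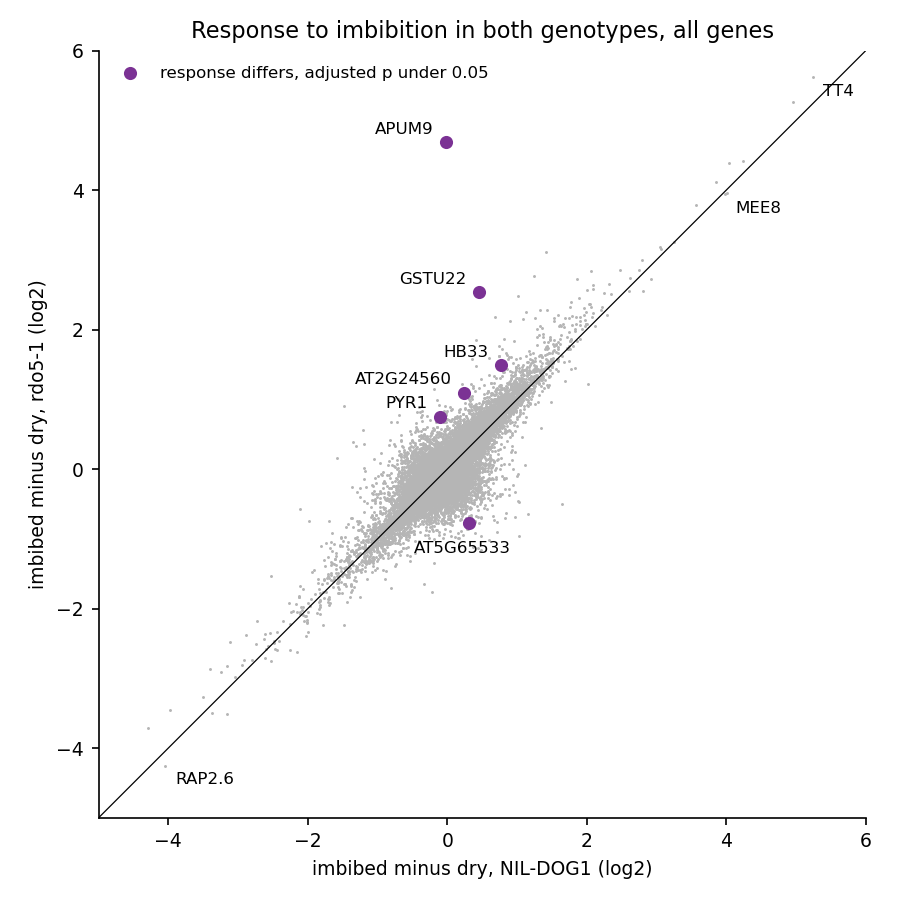
Change after 6 h of imbibition (log2) in rdo5-1 against that in NIL-DOG1 for all 30014 genes, with the line of equal change. Purple points mark the 6 genes whose response differed, of which APUM9 lies farthest from the line at 4.69 against -0.01.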

How the data were processed

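Gene expression was measured on Affymetrix AGRONOMICS1 arrays, from total RNA amplified and labelled with biotin. The authors deposited 1 log2 value per gene and array, summarised by RMA per the submitters' processing notes. RMA corrects background and equalises probe intensities across arrays before it summarises them, so a shift of the whole transcriptome cannot be read, dim genes keep some background and bright genes are compressed. The sources used here give neither its version nor the probe assignment. Arrays have no read depth, and their number, 3 a group, limits the precision.

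Values were fitted per gene with limma 3.58.1 in R 4.3.3 (lmFit, eBayes) to 6 group means on all 18 arrays, with Benjamini-Hochberg adjustment over 30014 genes. A call needs an adjusted p under 0.05. The labels call replicates biological without naming separate plants or harvests, so p-values measure the spread between these samples. Names come from RefSeq's gene table for TAIR10.1. Of 999 members written for the 39 lists, genes taken by locus prefix aside, 867 were used and 132 were left out. Those left out had no clear match in that table, were not on the array or repeated a member. Genes left out included 4 whose symbol belongs to another gene in that table. The scripts were tested on simulated data.

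Named are 8 fixed genes, the 15 largest called rises and falls with arrays that do not overlap, up to 6 called members per list with the largest change, 5 genes per direction with the smallest p for the difference between genotypes, and the 5 genes with the highest values per stage. Other genes are values of list members chosen after they were seen. Members and lists were chosen with earlier results of these data known, and the flavonol, EXORDIUM, MAPKKK and ribosomal protein lists after the values were seen. Alternatives were a filter on low values, median centring, quantile normalization, only the arrays compared, array weights, a trended robust prior, the replicate number as a block, and leaving out each array. A planned search for promoter motifs was not run.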

Additional observations from a re-analysis of the deposited data

Results flagged for a closer look

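The response to imbibition differed between rdo5-1 and NIL-DOG1 for 6 genes in the test of the difference itself (limma, adjusted over all genes), and each is given as rdo5-1 minus NIL-DOG1 on the log2 scale. APUM9, a Pumilio RNA-binding protein gene, differed by 4.7018, and its call held in all 19 alternatives. GSTU22, a tau glutathione transferase gene, differed by 2.0796 and was called in 8 of 19. AT2G24560, an unnamed locus, differed by 0.8505 and was called in 5 of 18. PYR1, an abscisic acid receptor gene, differed by 0.859 and was called in 4 of 19, in none of the 12 that leave out 1 array. HB33, a zinc finger homeodomain gene, differed by 0.7136 and was called in 5 of 19. AT5G65533, which is absent from the gene table used, differed by -1.0946 and was called in 6 of 19. Why the responses differ was not tested.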

How the results depend on the processing

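The count of called genes in rdo5-1 ran from 7211 to 9538 over the alternatives, within 1.5 times the 8496 reported. Of 257 named genes 247 were called, and 218 kept their call and direction in every alternative, 26 lost the call without 1 array and 19 in another alternative. Higher genes made up 58.1% of calls, 65.8% after median centring and 53.5% after quantile normalization. Of the 39 lists 16 had a median above 0, and 16 to 20 in the alternatives; 8 medians changed sign. The 6 called differences between genotypes became 1 with only the arrays compared and ran from 1 to 10 when 1 array was left out. The labels do not say whether the same replicate number pairs samples. Residuals of same-numbered dry and imbibed rdo5-1 arrays correlated at -0.051, 0.017 and -0.004, and those of differently numbered ones at -0.04 to 0.05. With 3 arrays a group these values cannot settle whether samples were paired. With the replicate number as a block 8301 genes and 1 difference were called. Signs turned only for 4 genes never called: OLEO4 (-0.0167 at the lowest, without imbibed array 1) changed by 0.0038 with array weights, 0.0394 after median centring, and 0.0026, 0.0014, 0.0022 and 0.0137 without dry array 1, dry array 2, imbibed array 2 and imbibed array 3. APUM11 changed by -0.0502 after quantile normalization and by -0.1371 to 0.1855 without 1 array, lowest without imbibed array 3. CRC changed by -0.0565 after quantile normalization and by -0.0053 (without imbibed array 1) to 0.0327 without 1 array. AT5G66400 changed by -0.0140, -0.0046 and -0.0042 without dry array 1, imbibed array 1 and imbibed array 3, and by 0.0227 at the highest.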

Other observations

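Small RNA and long noncoding loci were also on the array. Of 10 loci annotated as small nucleolar RNAs, which guide modification of ribosomal RNA, 4 rose and none fell, with a median change of 0.42 on the log2 scale. Of 178 long noncoding RNA loci 16 rose and 18 fell, and of 99 microRNA loci, whose array values read precursors at most, 5 rose and 5 fell. The share called was 40% of the small nucleolar RNA loci, 19.1% of the long noncoding loci and 10.1% of the microRNA loci, against 28.3% of all genes. The median dry levels of these classes were 4.20, 3.89 and 3.15, and those of protein coding genes 4.41, and the part of that difference in the shares was not tested.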
